A study of Mus musculus with 3 samples.

Results

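The genome of mouse embryonic fibroblasts was described through 7325 regions rich in trimethylated lysine 36 of histone H3 (H3K36me3), out of 37746 regions that were deposited for the 3 histone marks H3K4me3, H3K27me3 and H3K36me3. Every distinct pair of boundaries of an H3K36me3-rich region was a member, so no region was kept or left out by a measurement of the NFI libraries. The tags of 3 sequencing libraries and the NFI binding sites called in the wild-type library were counted inside the regions and in their flanks, which reach 1 region length to each side and leave out other H3K36me3-rich bases. The libraries were NFI immunoprecipitations (ChIP) from wild-type and from NFI-C knock-out fibroblasts, and input DNA of wild-type cells, for which no antibody was used. All cells were primary C57BL/6 mouse embryonic fibroblasts (MEF), a connective tissue culture, taken from embryos of 14.5 days and grown for 6 to 7 passages. The knock-out was made by an insertion in the NFI-C gene, and it leaves the genes of the other NFI proteins in place. The antibody, NFI (H300), recognises the NFI group of proteins and not NFI-C alone. For the knock-out sample, the title and the description disagree (the latter names wild-type cells), and the grouping follows the title. The tags over the targeted gene itself could not check the label, since an inserted sequence need not remove tags.

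H3K36me3 is placed on nucleosomes behind the elongating RNA polymerase II by SETD2, which travels with the polymerase, so that it marks the bodies of transcribed genes. H3K4me3 marks active promoters, and H3K27me3 marks genes held silent by Polycomb proteins. NFI proteins (also called CTF) are transcription factors that bind, as dimers, to a palindrome made of the half-site TTGGCA and its reverse complement.

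There was 1 library per condition, so no difference could be set against a replicate and no test across samples was made. After at most 1 tag per position and strand was kept, the wild-type ChIP held 3350071 tags, the knock-out ChIP 3132004 and the input 4100449. Densities are given as the fold of the genome average of the same library, which was 1.31, 1.22 and 1.60 tags per kb in this order. All intervals are 95% intervals that cover counting error only. They are exact binomial for shares and for the ratio of 2 counts, Poisson for a density of sites, and, where 4 counts enter, taken from the log ratio by a normal approximation.

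The sequences that carry an NFI palindrome at a bound place inside an H3K36me3-rich region are shown first. The palindrome was written as TTGGCANNNTGCCAA, whose 12 fixed positions may hold up to 2 mismatches; it reads the same on both strands. Capitals mark the match, with 22 bases of the mm9 plus strand in lower case on each side. The first 4 lines are matches without mismatch, chosen by their wild-type tags, after these were seen, among the 31 such matches inside the regions (matches in exons and on 1 chromosome, which the methods name, left out), and the last 4 are matches at deposited sites with many wild-type tags and fewer than 5 input tags.
Crybg3, chr16:59548356-59548414: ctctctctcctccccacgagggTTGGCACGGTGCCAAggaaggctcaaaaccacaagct
6430527G18Rik, chr12:88235418-88235476: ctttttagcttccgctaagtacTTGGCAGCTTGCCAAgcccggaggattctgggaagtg
Limd1, chr9:123424085-123424143: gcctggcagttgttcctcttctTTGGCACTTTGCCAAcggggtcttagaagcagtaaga
Gli3, chr13:15784111-15784169: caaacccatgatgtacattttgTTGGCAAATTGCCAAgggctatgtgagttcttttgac
Wdfy1, chr1:79694075-79694133: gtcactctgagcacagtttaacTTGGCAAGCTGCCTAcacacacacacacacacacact
Odc1, chr12:17561125-17561183: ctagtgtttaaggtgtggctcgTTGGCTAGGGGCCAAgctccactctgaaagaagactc
Plekho2, chr9:65389387-65389445: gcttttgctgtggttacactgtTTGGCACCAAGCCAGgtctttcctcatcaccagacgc
Pcdh9, chr14:94283859-94283917: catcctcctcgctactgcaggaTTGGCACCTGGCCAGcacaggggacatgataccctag

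In 300 bp around the Crybg3 match, in an intron of the gene, 6 wild-type tags, 6 knock-out tags and 1 input tag were counted. The intergenic match 9683 bp from 6430527G18Rik had 6, 4 and 3 tags, the intronic match in Limd1 5, 4 and 1, and the intronic match in Gli3, a transcription factor of Hedgehog signalling, 5, 1 and 1. Of the 31 intact palindromes inside the regions, 7 had no wild-type tag, 12 no knock-out tag and 17 no input tag, and the highest counts were 10, 6 and 3. The median counts were 2, 1 and 0.

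Among the deposited sites inside the regions with fewer than 5 input tags, the largest wild-type count stood in an intron of Ccdc38, where 14 wild-type tags, 3 knock-out tags and 0 input tags were counted, and without a palindrome within 150 bp. The Wdfy1 site, 4793 bp from the gene, had 13, 6 and 1 tags, and its match differed by A14T, where positions are counted from 1 at the 5′ end of the match and the consensus base is given first. The site in an intron of Tec, a kinase gene, had 12, 7 and 1 tags and no palindrome within 150 bp. The Odc1 site lay 2869 bp from the gene of ornithine decarboxylase, the first enzyme of polyamine synthesis; it had 11, 5 and 4 tags, and its match carried A6T and T10G. An intronic site in Mcc had 11, 3 and 0 tags beside an intact palindrome. Plekho2, with 10, 3 and 2 tags, differed by T10A and A15G, and Pcdh9, a protocadherin gene with a site in an intron 1539 bp from a start site and 9, 7 and 0 tags, by T10G and A15G. In all 7 sites the knock-out count was below the wild-type count, but they were chosen for a high wild-type count, which makes the other counts lower on average.

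The H3K36me3-rich regions covered 497 Mb, or 19.4% of the genome, on 20 chromosomes, with none on the Y. Their length ran from 113 bp to 616 kb with a median of 46.3 kb. A protein-coding gene overlapped 7134 of them (97.4%), and 87.7% of their bases lay in protein-coding genes, against 38.8% of the genome. Of all regions, 4197 shared at least 1 kb with 1 gene and 2926 with several, up to 20. Of the regions with 1 gene, 3903 lay for the larger part in that gene, which may hold other regions as well. These regions began a median of 1.36 kb after the gene start (quartiles -0.44 and 34.2 kb, where a minus means before it). They ended a median of 1.56 kb past the gene end (quartiles -30.7 and 4.50 kb). Of these regions, 57.9% began and 45.9% ended within 5 kb of the gene's own limit. H3K4me3-rich regions took up 52.5% of the H3K36me3-rich bases, against 18.8% of the genome, and H3K27me3-rich regions 31.0%, against 40.3% of the genome. The regions thus followed gene bodies and, for about as many bases as not, were also listed for H3K4me3.

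The label was checked against lists of genes, where a gene counted as marked when at least 1 kb of it was in the regions. All 15 housekeeping genes were marked, among them Actb (cytoskeletal actin), Gapdh (glycolysis) and Polr2a (the large subunit of RNA polymerase II), each covered over 100% of its length. Of 20 fibroblast genes, 19 were marked: Col1a1, Col1a2, Col3a1 and Fn1, which encode collagens and fibronectin of the extracellular matrix, were covered over 100%, Dcn over 33.7%, and Lum was not covered. Of 20 genes of other lineages, 2 were marked, Cd79a (B cells) and Krt10 (epidermis), while Alb (liver), Syt1 (neurons) and Ptprc (blood cells) had 0% coverage. Over all genes, 12316 of 22367 protein-coding genes (55.1%) were marked. The boundaries come from histone data of another study in MEF, so these counts check the label of the regions and not the cells of the 3 libraries.

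**Figure D1:**
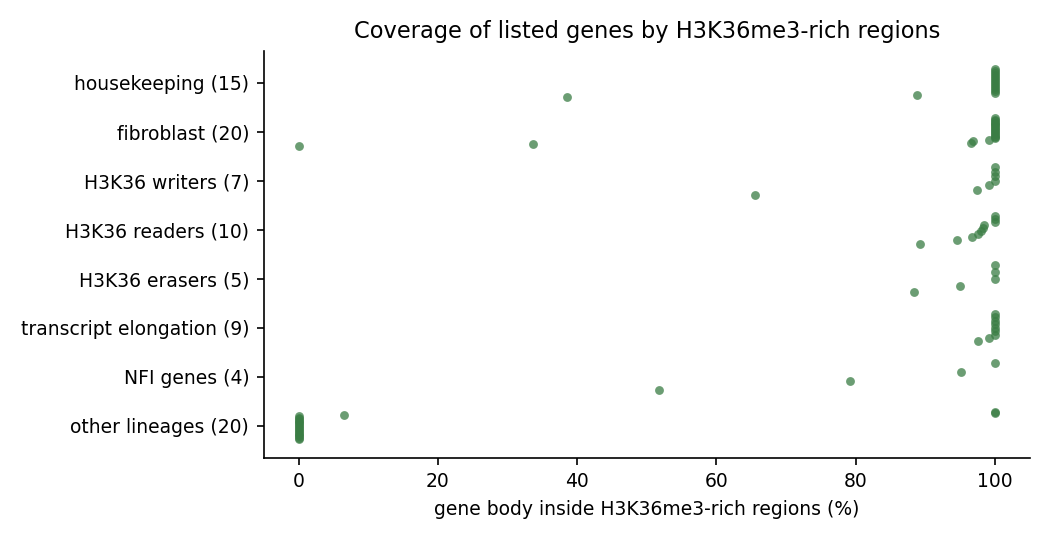
Share of each listed gene's body inside H3K36me3-rich regions, in percent, with 1 point per gene and the number of genes of each list in brackets. The housekeeping, fibroblast and H3K36 lists lie mostly at or near 100%, and 18 of the 20 genes of other lineages have less than 1 kb in the regions.

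Genes listed for H3K36 methylation in general, not for the trimethylated form alone, were marked as well. These were all 7 writers, with Setd2 at 100% and Nsd1 at 97.5%, and all 10 readers. Of the readers, the DNA methyltransferases Dnmt3a and Dnmt3b were covered over 100% and 94.6%. All 5 erasers were marked, with Kdm2a at 100%, and all 9 genes of transcript elongation, with Supt6h and Cdk12 at 100%. The 4 NFI genes were also marked. Nfix was covered over 100%, Nfic over 95.2%, Nfia over 79.3% and Nfib over 51.7%. The long genes Nfia and Nfib each held 19 deposited NFI sites, of which 18 in Nfia and 14 in Nfib were in the marked part. Nfix held 3 sites and Nfic 1, all in marked parts. The fibroblast genes held 51 sites, all in the regions, with 12 in Fbn1 (fibrillin), 8 in Col5a1, 7 in Prrx1 (a mesenchymal transcription factor) and 6 in Col1a2. Of the sites in all protein-coding genes, 59.5% were in the regions. The genes of other lineages held 31 sites, 15 of them in Syt1, which is 513 kb long. None of the 31 was in the regions, which barely cover these genes, so that where the sites of either list lie follows from the coverage. A site was found in 12 of 20 fibroblast genes and in 8 of 20 genes of other lineages, beside 35.3% of all protein-coding genes, and these counts were not corrected for gene length.

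All 3 libraries had more tags inside the H3K36me3-rich regions than in their flanks. The wild-type ChIP had 845626 tags inside, or 1.30 times its genome average, and 742236 in the flanks, or 1.04 times, a ratio of 1.246 (1.242 to 1.250). For the knock-out ChIP, 784250 tags (1.29 times) lay inside and 707950 (1.06 times) in the flanks, a ratio of 1.212 (1.208 to 1.216). The input had 1147390 or 1.44 times inside and 992016 or 1.14 times in the flanks, a ratio of 1.265 (1.262 to 1.269). Unprecipitated DNA thus showed the largest difference of the 3 libraries. Relative to the input, the wild-type ChIP stood at 0.985 (0.981 to 0.989) inside over flanks, and the knock-out ChIP at 0.958 (0.954 to 0.962). The first of these values passed 1 under other settings: it was 1.022 with flanks of 0.5 region lengths, 1.015 with flanks that keep other H3K36me3-rich bases, 1.014 outside H3K4me3-rich regions, and 1.014 when the flanks were weighted to the GC content of the regions.

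NFI sites differed more than tags did. The deposited list placed 14098 of its 39807 sites inside the regions, 28.3 per Mb (27.9 to 28.8), and 8128 in the flanks, 14.9 per Mb (14.6 to 15.3), a ratio of 1.90 (1.85 to 1.95). Counted per input tag instead of per Mb, the ratio was 1.5 (1.46 to 1.54). A cluster rule of at least 5 tags in 300 bp, applied to each library in turn without the authors' repeat filter, gave ratios of 1.68 (1.63 to 1.74) for wild-type ChIP, 1.53 (1.48 to 1.58) for knock-out ChIP and 1.65 (1.61 to 1.69) for input. The input gave the most clusters, 31639 in all and 31.9 per Mb inside. The wild-type ChIP gave 25723 and 17.7, and the knock-out ChIP 23860 and 16.3. The input also had the most tags, and these counts were not corrected for depth. Fewer wild-type clusters were called than the 39807 deposited sites, so the rule did not repeat the authors' calling. In the 300 bp around deposited sites inside the regions, without the authors' shift of tags, 12.7% held at least 5 wild-type tags. Clusters of input tags were thus also denser inside the regions, and their part in the deposited sites was not tested. Of the deposited sites inside, 96.0% had fewer than 5 input tags in 300 bp, as had 97.7% of the flank sites and 99.1% of all sites outside the regions, so that sites with 5 or more input tags were more frequent inside. Without them the ratio was 1.86. This cut-off leaves out few sites, and windows of this kind rarely held 5 tags even in the wild-type library. A ratio near 1.90 was therefore to be met, and it cannot show the part of input tags in the sites. No input tag was found at 47.9% of the sites inside.

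**Figure D2:**
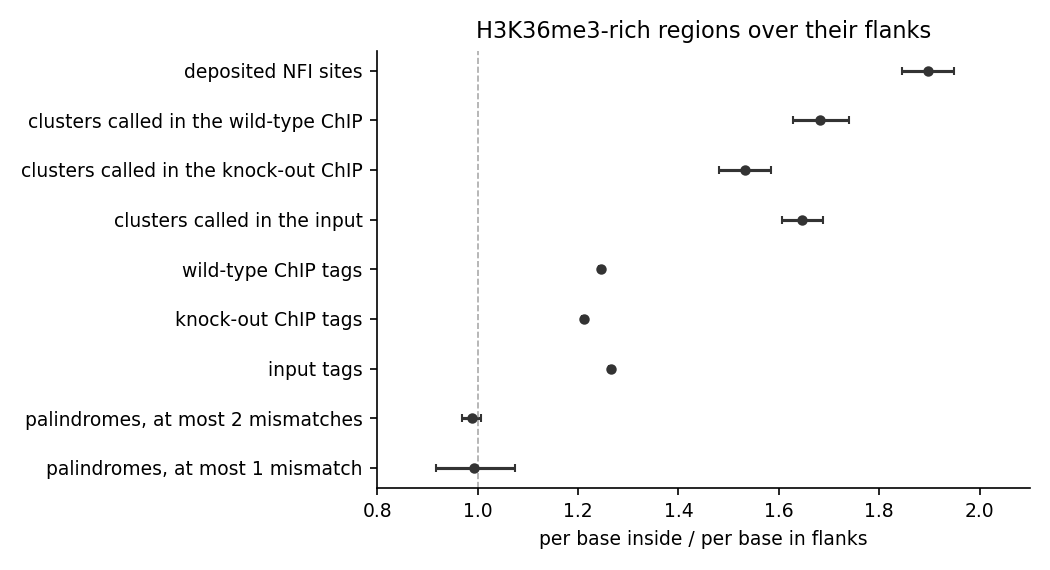
Density per base inside the H3K36me3-rich regions over that in the flanks for deposited sites, clusters, tags and palindromes, with 95% intervals; those of tags are narrower than the points. Sites and clusters lie between 1.53 and 1.90, tags between 1.21 and 1.27, and palindromes at 0.99.

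The difference was seen on each chromosome. The ratio of NFI sites ran from 1.68 on chromosome 16 to 2.08 on chromosome X, that of wild-type tags from 1.19 on X to 1.33 on chromosome 9, that of knock-out tags from 1.16 on chromosome 19 to 1.29 on chromosome 11, and that of input tags from 1.11 on X to 1.44 on chromosome 17. Relative to the input, wild-type tags were higher inside on 10 of 20 chromosomes, with a median of 0.999. The X chromosome had the smallest input difference and the largest difference in sites. The latter rests on 198 sites inside and 136 in the flanks, the fewest of any chromosome. Chromosome 7 had a site ratio of 2.06 with an input ratio of 1.30.

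**Figure D3:**
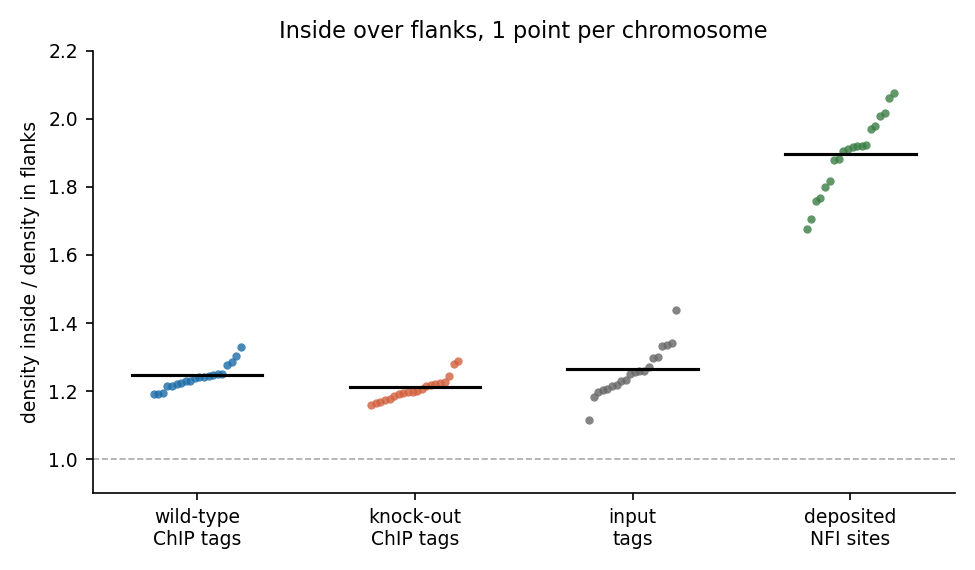
Ratio of the density inside the regions to that in the flanks, with 1 point for each of 20 chromosomes and a black bar for the whole genome. All points lie above 1, and the points of the deposited NFI sites, from 1.68 to 2.08, lie above all those of the tags.

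Taken by region, a wild-type excess over its own flanks was common but not general. Among the 7214 regions with at least 20 wild-type tags over inside and flanks, 79.3% had a ratio above 1 and the median was 1.22. The knock-out ChIP gave 75.3% and 1.19 over 7184 regions, and the input 72.3% and 1.20 over 7271. A median region held 77 wild-type, 71 knock-out and 106 input tags. At least 1 NFI site stood in 66.6% of the regions, 2450 had none, and 151 had 10 or more. The flanks held a site for 60.6% of the regions. Both flanks of a region together can be longer than the region, so the shares inside and in the flanks are not like for like.

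NFI sites per Mb, inside over flanks, had overlapping intervals over 4 classes of length with equal numbers of regions, whereas the ratio per input tag was lower in the shortest class. The regions were split into 4 classes of equal number, divided at 22, 46.3 and 91.2 kb. The ratio of sites was 1.85 (1.67 to 2.04) in the shortest class, then 1.95, 1.83 and 1.94 (1.87 to 2.01) in the longest. Per input tag the ratio was 1.22 (1.104 to 1.35) in the shortest class and 1.57 (1.52 to 1.63) in the longest. The share of regions with a site rose with length from 32.6% to 95.8%. Tags relative to the input did shift with length: wild-type over input, inside over flanks, was 0.90 (0.886 to 0.914) in the shortest class and 0.991, 0.993 and 1.011 (1.006 to 1.017) in the others. The input itself was at 1.87 times its average inside the shortest regions and at 1.40 times in the longest, against 1.44 and 1.30 times for the wild-type ChIP. In the fixed length classes the input stood higher still in the small classes, at 62.3 times in the 13 regions under 1 kb, 9.12 times in the 24 of 1 to 3 kb (4.35 times without the 1 region that holds 411 of the 767 input tags of this class, with a median of 1.11 times) and 3.39 times in the 515 of 3 to 10 kb. The site density inside also stood higher in the small classes, at 153 per Mb (65.8 to 301, from 8 sites) for 1 to 3 kb and 40.1 per Mb (33.9 to 47.0) for 3 to 10 kb, against 28.2 per Mb (27.7 to 28.7) for 30 kb and over. The site ratio per Mb was 1.33 (0.111 to 11.6) under 1 kb, from 2 sites inside and 3 in the flanks, and 15.8 (2.12 to 703) for 1 to 3 kb, from 8 sites inside and 1 in the flanks. Per input tag, the site ratio of the regions of 3 to 10 kb was 0.865 (0.685 to 1.09), an interval that holds 1.

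Site density and tags relative to the input both differed with gene overlap. In the 3876 regions with at least 0.9 of their bases in protein-coding genes, wild-type over input was 1.048 (1.043 to 1.054) inside over flanks, with 27.6 sites per Mb inside and a site ratio of 1.82 (1.76 to 1.88). In the 3258 regions partly in genes it was 0.937 (0.932 to 0.943), with 29.2 sites per Mb and a ratio of 2.02 (1.94 to 2.11). In the 191 regions outside protein-coding genes it was 0.710 (0.686 to 0.734), with 40.4 sites per Mb and a ratio of 1.98 (1.60 to 2.45), and the input reached 2.48 times its average there. The site density was highest in the class where the input was also highest. Counted per input tag, the site ratio was 1.56 (1.51 to 1.61) in the first class, 1.5 (1.44 to 1.57) in the second and 0.924 (0.750 to 1.14) in the regions outside genes, where the interval holds 1.

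**Figure D4:**
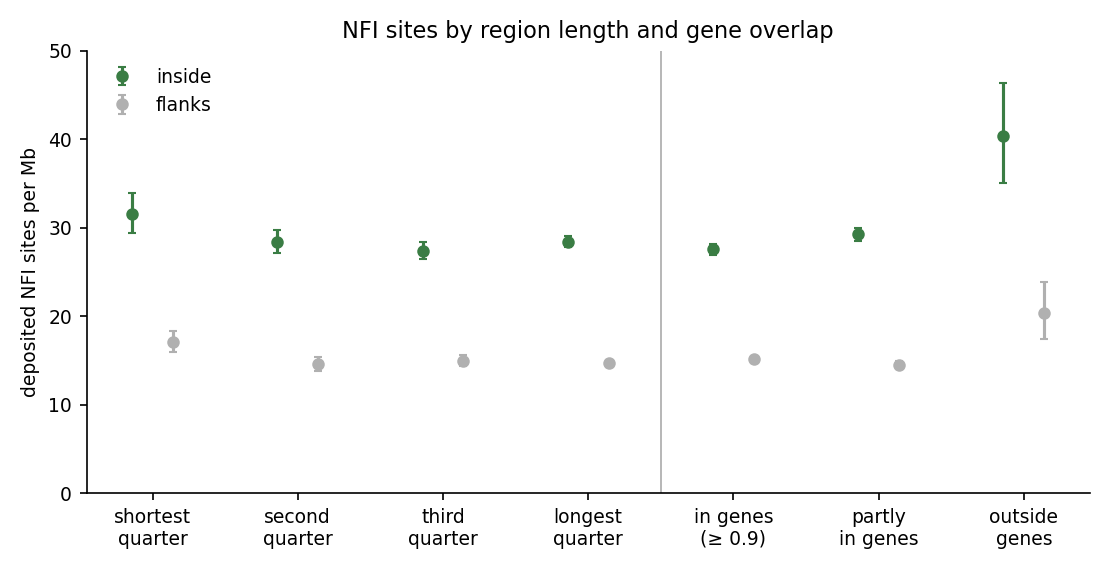
Deposited NFI sites per Mb inside the regions (green) and in the flanks (grey), with Poisson 95% intervals, for 4 classes of region length and 3 classes of overlap with protein-coding genes. Inside values lie between 27.4 and 40.4 and flank values between 14.5 and 20.4, and the intervals of inside and flanks do not overlap in any class.

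The mark was also compared among gene bodies alone. The H3K36me3-rich parts of protein-coding genes held 27.5 NFI sites per Mb and the other parts 15, a ratio of 1.83 (1.78 to 1.88). Introns gave 26.3 and 14.6 per Mb, a ratio of 1.80 (1.75 to 1.85), and exons 37.3 and 22.2 per Mb, a ratio of 1.68 (1.54 to 1.84). Exons and introns differed strongly in the input but not in the wild-type ChIP. Inside the regions, input tags stood at 2.37 times the average in exons and 1.28 times in introns, whereas wild-type tags stood at 1.28 times in both and knock-out tags at 1.30 and 1.26 times. The bases of the regions outside protein-coding genes held 34.5 sites per Mb, above the 27.5 in genes, with the input at 1.75 and 1.40 times. Per input tag, the sites in genes over those outside genes were at 0.997 (0.952 to 1.044), and exons over introns at 0.764 (0.726 to 0.804). The ratio of rich to other gene bodies was 1.33 (1.29 to 1.37) per input tag.

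Of the 14098 NFI sites inside the regions, 85.1% (84.5 to 85.6) lay in protein-coding genes, 72.5% in introns and 12.6% in exons, with 6.76% in untranslated regions. A start site was within 1 kb of 15.8% (15.2 to 16.4) of them, against 8.78% (8.18 to 9.42) of the flank sites. With the outermost start of each gene alone these shares were 9.87% and 6.89%. The shares near a start were not set against the share of bases there, so they cannot show a preference of the sites. Protein-coding genes make up 87.7% of the bases of the regions, and introns 389 of the 497 Mb and exons 47.5 Mb, so that the shares in genes and introns were slightly below those of the bases.

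**Figure D5:**
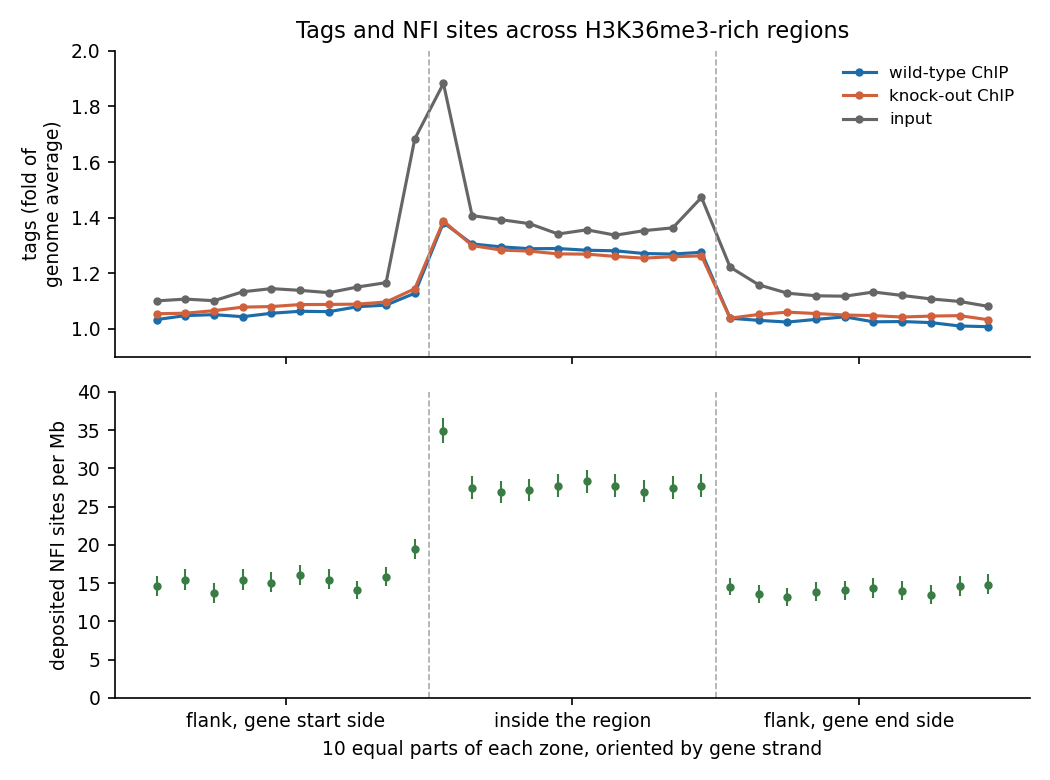
Tags as fold of the genome average (top) and deposited NFI sites per Mb with Poisson 95% intervals (bottom). The regions and each flank are cut into 10 equal parts. The 7134 regions that overlap a protein-coding gene are shown, oriented by the strand of the gene with the largest overlap. Sites step from 13.2 to 19.4 per Mb in the flanks to between 26.8 and 34.9 inside, and the input peaks at the boundary on the gene start side.

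Along the regions, NFI sites formed a plateau with sharp edges. The flank part next to the boundary on the gene start side held 19.4 sites per Mb and the first part inside 34.9 (the highest of all parts); parts 2 to 9 inside stayed between 26.8 and 28.3, the last part held 27.7, and the next part outside 14.5. Wild-type tags followed the same course, at 1.13 and 1.38 times the average on both sides of the start boundary, between 1.27 and 1.31 in the inner parts, and 1.28 and 1.04 at the end boundary. The knock-out ChIP was at 1.14, 1.39, 1.25 to 1.30, 1.26 and 1.04. The input rose at the start boundary to 1.68 outside and 1.88 inside, beside 1.34 to 1.41 in the inner parts. In parts 2 to 9 of the flanks it was at most 1.17 on the start side and at most 1.16 on the end side. The input thus also stood higher inside. At the start boundary the wild-type ChIP was 0.670 and 0.734 of the input, and in the inner parts 0.928 to 0.961. In parts 2 to 9 of the flanks it was 0.921 to 0.955 of the input on the start side and 0.890 to 0.934 on the end side. At the end boundary it was 0.866 of the input inside and 0.850 outside.

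H3K4me3 moved with a part of these values. Inside the H3K36me3-rich regions, bases that were also H3K4me3-rich held 37.9 sites per Mb and the others 17.8, a ratio of 2.13 (2.06 to 2.21), and 70.2% of the sites inside were in H3K4me3-rich regions. The input differed in the same direction, at 1.71 against 1.14 times its average. Per input tag that ratio was 1.42 (1.37 to 1.48). With all H3K4me3-rich bases left out, 17.8 sites per Mb inside faced 10.5 in the flanks, a ratio of 1.70 (1.63 to 1.77). In gene bodies without H3K4me3 the ratio was 1.44 (1.38 to 1.5) per Mb and 1.12 (1.07 to 1.17) per input tag. The 852 regions with no H3K4me3-rich base had a site ratio of 1.41 (1.24 to 1.61), or 1.36 (1.2 to 1.55) per input tag, and their input was at 1.06 times inside and 1.02 times in the flanks, beside 1.15 and 0.973 times for the wild-type ChIP and 1.12 and 0.980 times for the knock-out ChIP. In these 852 regions the wild-type ChIP over the input was 1.137 (1.116 to 1.158) inside over flanks, with both ChIP libraries further from their flanks than the input was. Bases inside that were also H3K27me3-rich held 39.2 sites per Mb against 23.5 for the others, with the input at 1.93 against 1.22 times and a ratio per input tag of 1.05 (1.02 to 1.09).

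Compared with the other marks over their own flanks, H3K36me3-rich regions were intermediate in sites. H3K4me3-rich regions had a site ratio of 2.55 (2.49 to 2.62) and H3K27me3-rich regions of 1.36 (1.33 to 1.39), intervals that do not meet the 1.85 to 1.95 of H3K36me3. The sets of regions share bases, and the flanks of each mark leave out only the bases of that mark. The intervals thus do not come from separate sets, and the ratios are set side by side only as a description. Per input tag these ratios were 1.61 (1.57 to 1.66) and 1.04 (1.01 to 1.06). Input tags were at 1.27 inside over flanks for H3K36me3, 1.58 for H3K4me3 and 1.31 for H3K27me3. Wild-type over input was 0.985 for H3K36me3, nearer to 1 than the 0.838 of H3K4me3 and the 0.873 of H3K27me3. Knock-out over wild-type was below 1 only for H3K36me3 among the 3 marks, at 0.972 (0.968 to 0.977) beside 1.017 and 1.026.

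The lower knock-out value inside the regions was small. Knock-out over wild-type tags was 0.992 of the genome average inside and 1.020 in the flanks. The ratio of both was below 1 on 19 of 20 chromosomes, from 0.953 on chromosome 16 to 1.001 on chromosome 11, and between 0.955 and 0.984 under all 20 alternatives that were run. It was not seen in all classes of regions: it was 0.996 (0.979 to 1.014) in the shortest of 4 length classes, 1.036 (0.995 to 1.078) in the regions of 3 to 10 kb and 1.025 (0.987 to 1.063) outside protein-coding genes. Without the flanks, knock-out over wild-type was above the genome average in 48.7% of 7119 regions, with a median of 0.993. Any single sequencing run used in place of its library gave 0.964 to 0.979. A difference of this size between single libraries has no replicate behind it, and NFI-C loss, library preparation and culture cannot be told apart.

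In tiles of 10 kb, 23.6% of the 49711 tiles with at least 0.5 of their length in the regions held an NFI site, against 13.9% of all 255864 tiles. Among tiles with at least 20 tags over both libraries, the wild-type ChIP was at least 1.5-fold above the input in 8213 of 48933 tiles of the regions (16.8%), against 21.4% of all tiles, and at least 1.5-fold below it in 23.5%, against 18.7%. At 2-fold, 5.26% of the tiles of the regions were above the input, against 7.63% of all tiles, and 11.5% below it, against 8.32%. For the knock-out ChIP at 1.5-fold, 16.3% of the tiles of the regions were above the input, against 21.6%, and 25.2% below it, against 19.8%. Knock-out tags were at least 1.5-fold above wild-type tags in 18.3% of the tiles, against 19.8%, and at least 1.5-fold below in 20.1%, against 20.6%, which is close to the background. A tile of the regions held a median of 16 wild-type, 15 knock-out and 20 input tags, so that counting error can move single tiles past this fold.

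The palindrome was no denser in the regions. Matches with at most 2 mismatches stood at 41.8 per Mb inside and 42.3 in the flanks, a ratio of 0.988 (0.969 to 1.006), while the GC content was 44.4% inside and 44.2% in the flanks. Within 150 bp, 3.38% (3.08 to 3.69) of the sites inside and 3.38% (3.00 to 3.8) of the flank sites had a match, against 1.26% and 1.55% of windows 2 kb away from them. Sites were thus about equally often beside a palindrome within and around the regions, and most had none.

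Wild-type tags at the palindromes were raised over their surroundings to a like extent inside and outside. At matches with at most 1 mismatch, knock-out tags were lower inside relative to each of the other libraries, without correction for the surroundings. In 300 bp around the 1213 matches inside with at most 1 mismatch, wild-type tags reached 2.83 times the genome average, and around the 1337 in the flanks 2.18 times. Divided by the density of the regions and of the flanks, these were 2.18 and 2.09. The knock-out ChIP reached 2.41 and 2.14 times, or 1.87 and 2.01 over its surroundings. The input had 1.46 and 1.07 times, or 1.02 and 0.942 over its surroundings, so that the rise at the palindrome was seen in both ChIP libraries and not in the input. Knock-out over wild-type at these matches was 0.852 (0.786 to 0.924) inside and 0.984 (0.904 to 1.070) in the flanks, a ratio of 0.866 (0.772 to 0.973). Knock-out over input at these matches was 1.65 (1.504 to 1.80) inside and 2.00 (1.81 to 2.2) in the flanks, a ratio of 0.824 (0.723 to 0.940). Over all tags, inside over flanks, knock-out over wild-type was already 0.972 and knock-out over input 0.958. The ratios at the matches were not divided by these values, so a part of them is shared with the whole regions. With up to 2 mismatches the ratio of knock-out over wild-type was 0.956 (0.924 to 0.990). That of knock-out over input was 0.987 (0.953 to 1.021), an interval that holds 1. Over its surroundings, the knock-out ChIP was then at 1.36 inside and 1.35 in the flanks. For the 31 and 26 intact palindromes, knock-out over wild-type was 0.805 (0.471 to 1.38) and knock-out over input 0.774 (0.318 to 1.88). Both of these intervals hold 1.

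At the deposited sites inside the regions, a 300 bp window held on average 3.37 wild-type, 0.942 knock-out and 1.31 input tags, or 8.59, 2.56 and 2.71 times the genome average. At flank sites the means were 3.25, 0.815 and 0.892. The wild-type count was used to call the sites, so only the other libraries are informative here. Knock-out over input was 0.945 (0.924 to 0.966) at the sites inside and 1.20 (1.16 to 1.24) at those in the flanks. Over all tags it was 0.895 inside the regions and 0.934 in the flanks, so the sites stood above their surroundings in both. The input was of wild-type cells, and the knock-out had no input of its own. Among sites with fewer than 5 input tags, knock-out over input was 1.36 (1.33 to 1.40) inside and 1.52 (1.47 to 1.58) in the flanks, values that depend on a choice made by the input count. At the 476 sites inside with a palindrome it was 2.07 (1.85 to 2.32), beside 2.73 (2.32 to 3.23) at the 275 in the flanks. No knock-out tag was found at 54.7% of the sites inside and 54.8% of those in the flanks.

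The longest regions followed long genes. The region over Foxp1, a forkhead transcription factor gene, and part of Eif4e3 (chr6:98867755-99483485) was 616 kb long with 24 NFI sites, and its tags stood at 1.35 times the average for wild-type ChIP, 1.37 times for knock-out ChIP and 1.40 times for input. The region over Lpp, which encodes a protein of focal adhesions (chr16:24387787-24994335), was 607 kb long with 31 sites, at 1.59, 1.35 and 1.37 times. The region over Slit3, a secreted guidance protein gene (chr11:34936708-35526519), held 24 sites at 1.25, 1.14 and 1.18 times. The regions over Kif26b and Smyd3 (chr1:180457930-181030122) and over the cell polarity gene Pard3 (chr8:129588825-130142687) held 14 and 18. Of these 5, the Lpp region was the one with the largest distance between the wild-type ChIP and both other libraries.

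Of the 5 regions with the most sites, Lpp, Foxp1 and Slit3 are among the longest, and the other 2 are shorter. The region over Sfi1, Drg1 and Eif4enif1 (chr11:3026934-3166421) held 68 sites in 139 kb, and its tags stood at 16.4 times the average for wild-type ChIP, 19.1 times for knock-out ChIP and 17.6 times for input. The region over the Ugt1a genes, which encode enzymes of glucuronidation, and over Heatr7b1 and Hjurp (chr1:90099351-90207879) held 44 sites in 109 kb at 4.50, 5.32 and 5.42 times. Lpp, Foxp1 and Slit3 were also above the average in all 3 libraries, but at most at 1.59 times.

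Among the 7145 regions of at least 5 kb with at least 20 tags over both libraries, the ratio of the wild-type ChIP to the input with 5 tags added to each was highest in the regions over 2310008H04Rik (28 wild-type, 15 knock-out and 8 input tags), Capn6 and Pak3 (48, 27 and 16) and Zfp874a (27, 6 and 10). It was lowest in a region outside protein-coding genes (chr17:39980089-39985737, with 537, 582 and 6287 tags). The region over Jund, a gene of the AP-1 family, followed (chr8:73221419-73233220, with 11, 26 and 135 tags). Another region outside genes came after it (chr11:61221189-61228584, with 3, 14 and 46 tags). The lowest region was 5.65 kb long with 64.9% GC and held 4 sites. It stood at 694 times the average in the input, 72.6 times in the wild-type ChIP and 84.2 times in the knock-out ChIP. The extremes of this ratio lay in short regions with few tags or with a very high input, and were chosen by the ratio itself.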

How the data were processed

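The authors mapped the reads of 3 libraries to mm9 with ELAND and deposited every read with its match counts, which were not normalized. They called in vivo NFI sites of 16 bp from the wild-type ChIP with ChIP-peak (window 300 bp, vicinity 300 bp, threshold 5 tags, 75 bp shift, repeat filter) and deposited the boundaries of histone-mark regions, which they made with ChIP-PART from histone data of another study in MEF. Those histone data were not analysed here. The distinct H3K36me3-rich regions were read from the boundary list: 7323 of the 7325 are exactly the gaps between the deposited H3K36me3-poor regions, and the other 2 lie at chromosome ends.

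The 5′ ends of uniquely mapped tags were counted on chromosomes 1 to 19, X and Y, and copies at a position and strand were counted once. The sequencing runs of a library (3 for each ChIP, 2 for the input) were pooled. Bases not determined in NCBI build 37 were left out. Genes came from GENCODE vM1 on the same build. A site was assigned by its middle. Depth was 14358325 reads for wild-type ChIP, 16330049 for knock-out ChIP and 12029975 for input, and in this order each distinct tag was seen 2.92, 3.45 and 1.32 times on average.

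With 1 library per group no test was made. The regions, gene lists and settings were chosen with earlier results of these data known. Named were the 5 longest regions, the 5 with the most sites, the 3 highest and the 3 lowest by wild-type over input, and the sites with fewer than 5 input tags and the most wild-type tags (5, and 5 with a palindrome). Sequence from chromosome 18 is not printed. The counting was tested on simulated tags with known ratios on chromosome 19. The cluster rule was tested only for finding planted clusters, and no ratio of clusters was tested. Alternatives covered the tags counted, the flanks, the GC content, H3K4me3, the sequencing runs and the choice of sites. Python 3.11.15, NumPy 2.4.6, pandas 2.3.3, SciPy 1.17.1 and matplotlib 3.10.9 were used.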

Additional observations from a re-analysis of the deposited data

How the results depend on the processing

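Of 138 recomputed values, 61 stayed near the reported value (within its counting interval, or within 1.5 times for a count), 73 moved further and 4 reversed, all 4 in wild-type over input inside over flanks, which ranged from 0.864 to 1.022. Ratios of tags (wild-type 1.17 to 1.36, knock-out 1.14 to 1.33, input 1.15 to 1.58) and of sites (1.5 to 2.06) stayed above 1, and knock-out over input (0.845 to 0.998) and knock-out over wild-type stayed below 1.

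Counting every uniquely mapped tag, copies included, gave 1.36 for wild-type tags, 1.33 for knock-out tags, 1.58 for input tags, 0.864 for wild-type over input, 0.845 for knock-out over input and 0.978 for knock-out over wild-type. Tags mapped without mismatch gave 1.24 for wild-type tags and 1.26 for input tags. Keeping undetermined bases in the length gave 1.25 for wild-type tags, 1.22 for knock-out tags and 1.27 for input tags. Flanks of 0.5 region lengths gave 1.22 for wild-type tags, 1.19 for knock-out tags, 1.19 for input tags, 1.022 for wild-type over input, 0.998 for knock-out over input and 1.84 for NFI sites. Flanks that kept other H3K36me3-rich bases gave 1.17 for wild-type tags, 1.15 for knock-out tags, 1.15 for input tags, 1.015 for wild-type over input, 0.996 for knock-out over input, 0.981 for knock-out over wild-type and 1.58 for NFI sites. Flanks set 1 kb apart gave 1.29 for input tags, 0.971 for wild-type over input and 0.944 for knock-out over input. Without H3K4me3-rich bases the values were 1.20 for wild-type tags, 1.14 for knock-out tags, 1.18 for input tags, 1.014 for wild-type over input, 0.969 for knock-out over input, 0.955 for knock-out over wild-type and 1.70 for NFI sites. Without 10 kb bins over 5 times the input average they were 1.23 for wild-type tags, 1.20 for knock-out tags, 1.24 for input tags, 0.994 for wild-type over input and 0.965 for knock-out over input. With the flanks weighted to the GC content of the regions they were 1.21 for knock-out tags, 1.23 for input tags, 1.014 for wild-type over input and 0.983 for knock-out over input. Gene bodies alone gave 1.31 for wild-type tags, 1.29 for knock-out tags, 1.38 for input tags, 0.955 for wild-type over input, 0.939 for knock-out over input, 0.984 for knock-out over wild-type and 1.83 for NFI sites. Introns alone gave 1.31 for wild-type tags, 1.29 for knock-out tags, 1.35 for input tags, 0.975 for wild-type over input, 0.984 for knock-out over wild-type and 1.80 for NFI sites. Of single sequencing runs, run 1 of the wild-type ChIP gave 1.26 for wild-type tags, 0.994 for wild-type over input and 0.964 for knock-out over wild-type, run 1 of the knock-out ChIP gave 1.22 for knock-out tags, 0.965 for knock-out over input and 0.979 for knock-out over wild-type, run 3 of the knock-out ChIP gave 1.22 for knock-out tags and 0.962 for knock-out over input, run 1 of the input gave 1.26 for input tags, and run 2 of the input gave 1.29 for input tags, 0.969 for wild-type over input and 0.942 for knock-out over input. The ratio of sites was 2.06 with at least 5 wild-type tags, 1.5 per input tag, and 1.68, 1.53 and 1.65 for clusters called in wild-type, knock-out and input tags. With the outermost start of each gene, 9.87% of the sites inside lay within 1 kb of a start. At 2-fold, 2574 tiles of the regions (5.26%, against 7.63% of all tiles) were above the input and 11.5% (against 8.32%) below it. A palindrome with at most 1 mismatch stood within 150 bp of 0.532% of the sites inside, and one with at most 2 within 50 bp of 1.15%. The gene body, intron, per-library cluster and per-input-tag settings, those without regions under 3 kb, the ratio of sites without the bins of high input (1.88), and the input of short regions without 1 region, were chosen after the data were seen; the cause of these shifts was not tested.

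Joining regions less than 1 kb apart changed nothing, as no such pair exists. No paired analysis was possible because there was 1 library per condition. For the same reason the spread between cultures is unknown, and the number of tags limits single regions and tiles: a difference inside their counting error was not detectable.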

Other observations

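The difference in NFI sites held within classes of base composition. In 1 kb bins with 30 to 40% GC the regions held 27.6 sites per Mb and the flanks 14, a ratio of 1.97 (1.85 to 2.09). With 40 to 50% GC the densities were 25.3 and 13.6, a ratio of 1.85 (1.79 to 1.92), and with 50 to 60% GC 38.7 and 21.3, a ratio of 1.81 (1.70 to 1.94). The input rose with GC inside the regions from 1.09 times the genome average at 30 to 40% to 11.2 times at 60 to 70%, whereas the wild-type ChIP stood at 1.37 and 1.5 times and the knock-out ChIP at 1.29 and 1.91 times in these classes.

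The 37 regions under 3 kb had a median of 1.79 times the average in the input, and 15 of them were over 5 times. The highest, 141 bp at Chl1 (chr6:103599044-103599184), held 52 wild-type, 70 knock-out and 82 input tags, which is 282, 406 and 363 times the average. Next came 145 bp at 2210408I21Rik (chr13:77578167-77578311) with 27, 31 and 46 tags. Of the 340 tiles of 10 kb that were over 5 times the input average, 301 (88.5%) touched an H3K36me3-rich region, as did 56896 (22.2%) of all 256043 tiles with determined bases.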
